A study of Homo sapiens with 59 samples.

Results

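Extracts of Coptidis Rhizoma, the dried rhizome of goldthread, and of Zizyphi Fructus, the jujube fruit, were set against each other at their high dose in A549 cells, a human lung adenocarcinoma line. The members are the libraries labelled with these extracts and that dose, 4 of the 59 in the series: Coptidis Rhizoma at 110 µg/mL (n = 2) and Zizyphi Fructus at 500 µg/mL (n = 2). Both were 70% ethanol extracts given for 24 h, and both groups carry library set 11 in their sample codes. The same set holds each extract at a medium dose (22 and 100 µg/mL, n = 2 each) and a low dose (4.4 and 20 µg/mL, n = 2 each). The vehicle was 0.1% DMSO by the sample labels (n = 3), and its libraries enter the model fit but were not tested against either extract. For its concentration the series text gives another value, and its codes name no library set. All groups are the same line, which is known to carry a deletion of CDKN2A and to lack functional KEAP1 and LKB1.

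The series text sets a high dose of 500 µg/mL, or the concentration of 20% inhibition where that lies lower. By that rule 110 µg/mL was a dose chosen for its effect on the cells and 500 µg/mL was the ceiling. The extract, its mass per volume and its degree of inhibition therefore cannot be told apart in any difference reported here. The labels do not say that the libraries come from separate cultures, so p-values measure only the spread between these libraries, which may be technical.

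Coptis rhizomes are known for isoquinoline alkaloids such as berberine and coptisine, and jujube fruit for sugars, triterpenes and flavonoids. Neither was measured here. Several pathways that cells use to answer plant compounds leave a clear trace in mRNA. The aryl hydrocarbon receptor (AhR) binds planar aromatic compounds and switches on cytochrome P450 genes of the CYP1 family. The integrated stress response raises translation of the transcription factor ATF4, which turns on amino acid synthesis, transport and tRNA charging. SREBP2 turns on cholesterol synthesis when membrane sterols are low, and p53 and E2F set the pace of the cell cycle.

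The 4 libraries held 20877825 to 26879826 expected counts each, and the 12 libraries of set 11 held 18386315 to 27019721. Levels are given as TMM-scaled CPM, each library's counts put on a common total, in the order of the libraries numbered 2 and 3. In sampling terms the replicates were distinct: the chi-square per gene was 2.19 between the Coptidis Rhizoma libraries and 5.42 between the Zizyphi Fructus libraries, where 1 is counting noise. Epithelial and A549 genes were present in all 4 libraries, among them ALDH1A1 at 5620 to 6761 CPM and AKR1B10 at 3004 to 3378 CPM. CDKN2A was at 0 in all 4, and the alveolar genes SFTPB, SFTPC and NKX2-1 were at 0.168 CPM or less. Of 19 markers of other cell types, 13 were too low to test, PTPRC and CD3E were at 0 in all 4 libraries, and the summed level of the 19 was 46.7 and 49.2 CPM with Coptidis Rhizoma and 51.2 and 47.8 CPM with Zizyphi Fructus. Counts on genes annotated as antisense were 3137 and 3132 CPM with Coptidis Rhizoma, 2863 and 2881 CPM with Zizyphi Fructus and 2761 to 2805 CPM in the vehicle. Of the other libraries in the series, 4 held 3149 to 4600 CPM, the lowest of them close to the Coptidis Rhizoma libraries. An alternative fit left those 4 out and kept the Coptidis Rhizoma libraries. The part of antisense counts in the results was not tested.

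The extracts differed across a large share of the expressed genome. Of 16541 genes tested, 5484 passed an adjusted p of 0.05 (33.2%), 2694 of them higher (16.3%) and 2790 lower (16.9%) with Coptidis Rhizoma. Most differences were modest: the median absolute log2 difference of the called genes was 0.35, and 309 genes were called and at least 2-fold higher (1.87%) against 169 lower (1.02%). Without regard to a test, the libraries of the extracts did not overlap in 33.2% of genes with Coptidis Rhizoma higher and in 32.3% with it lower. In 5133 of the 5484 called genes (93.6%) the vehicle mean lay nearer to the Zizyphi Fructus mean than to the Coptidis Rhizoma mean, against 74.8% of all tested genes. A called gene is said below to have risen or fallen with Coptidis Rhizoma relative to Zizyphi Fructus.

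**Figure D1:**
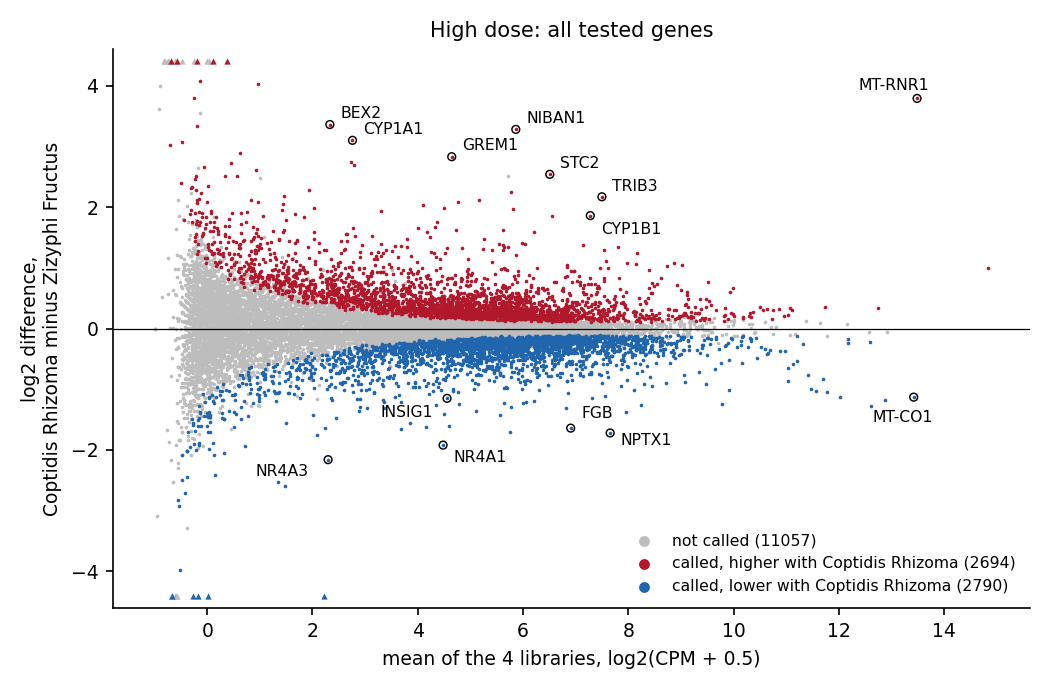
Log2 difference between the extracts at the high dose (vertical axis) against the mean level of the 4 libraries (horizontal axis, log2 of CPM plus 0.5), 1 point per tested gene, coloured by call. The 2694 genes called higher and 2790 called lower spread to both sides, and MT-RNR1 stands at a log2 difference of 3.79; 27 genes beyond a log2 difference of 4.4 are drawn as triangles at the edge.

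The 10 largest rises among genes with a symbol and 5 CPM or more in the higher group were MT-RNR1, BEX2, NIBAN1, CYP1A1, GREM1, ADM2, RAB39B, STC2, TMEM265 and SLFN5. NIBAN1 (chr1, a stress-induced regulator of translation and survival) stood at 106 and 103 CPM with Coptidis Rhizoma, 12.3 and 9.47 with Zizyphi Fructus and 10.6 to 12.1 in the vehicle. Its log2 difference was 3.28 ± 0.09 (SE), 9.7-fold, with an adjusted p of 9.32e-14. GREM1, a secreted antagonist of bone morphogenetic proteins, was at 44.8 and 41.3 CPM against 5.8 and 6.22 (7.13-fold). SLFN5, of the Schlafen family, was at 90.1 and 88.2 CPM against 18.3 and 19 (4.77-fold). For NIBAN1, GREM1 and SLFN5 both Coptidis Rhizoma libraries lay several-fold above all Zizyphi Fructus and vehicle libraries. TMEM265 was closer to the vehicle, at 6.38 and 4.58 CPM with Coptidis Rhizoma and 1.72 to 2.57 CPM in the vehicle.

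The 10 largest falls among such genes were NR4A3, NR4A1, GPR37, NPTX1, H19, INSL4, FGB, UPK3B, SCARA5 and TM4SF4. NPTX1, a neuronal pentraxin expressed in this line, fell from 313 and 304 CPM with Zizyphi Fructus to 92.3 and 94.9 CPM (log2 difference -1.72 ± 0.05, adjusted p = 4.21e-13). H19, the imprinted long noncoding RNA, was at 24.8 and 25.3 CPM against 75.4 and 88.7 CPM. All 3 vehicle libraries were on the Zizyphi Fructus side for both genes, at 349 to 382 CPM for NPTX1 and 78.6 to 92.9 CPM for H19.

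Among AhR targets 6 of 8 tested members rose and none fell, against 16.3% higher and 16.9% lower among all tested genes. The median log2 difference of the 8 was 1.13, against 0.00 over all tested genes. CYP1A1, which hydroxylates polycyclic aromatic compounds, was at 10.7 and 11.8 CPM with Coptidis Rhizoma, 1.16 and 1.43 CPM with Zizyphi Fructus and 0.617 to 0.901 CPM in the vehicle (log2 difference 3.10 ± 0.18, 8.59-fold, adjusted p = 1.16e-09). CYP1B1 was at 238 and 247 CPM against 67.7 and 66 CPM (3.63-fold), and TIPARP, an ADP-ribosyltransferase that feeds back on the receptor, at 148 and 144 CPM against 41.1 and 39.9 CPM (3.6-fold). AHRR, the receptor's repressor, ALDH3A1 and NQO1 were the other called members, at log2 differences of 1.65, 0.60 and 0.15. The Zizyphi Fructus libraries were above all vehicle libraries for CYP1A1, CYP1B1 and TIPARP, by far less than the Coptidis Rhizoma libraries were. That smaller gap was not tested.

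The AhR binds, with its partner ARNT, a short core of letters, GCGTG. RefSeq promoter sequences (GRCh38.p14, 250 bases before to 50 after the start of the gene) were found for 8 of the 10 listed AhR targets, and 6 of the 8 held the core on either strand, as did 36.3% of all 27305 promoters of the same length and 50.3% of those of tested genes. The matches of 3 members that rose are shown along the gene, with the core or its complement in capitals:
CYP1A1, chr15:74725571-74725595, minus strand: agggaaggagGCGTGgccacacgta
TIPARP, chr3:156674372-156674396, plus strand: cgagaaaggaCACGCcccctcgcgg
AHRR, chr5:321674-321698, plus strand: cgggcggctcGCGTGccggggtggg
The other promoters with the core were those of NQO1, which rose, and of NFE2L2 and UGT1A6, which were not called. TIPARP holds another match that is not shown. A match of 5 letters is a description of the window and not a binding site.

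ATF4 targets rose in nearly every group of their members. All 17 tested regulators in the list rose (median log2 difference 1.31), as did 12 of 14 enzymes of serine, one-carbon, proline and asparagine metabolism (1.03), 7 of 9 amino acid transporters (0.66) and 12 of 12 cytosolic tRNA synthetases of the ATF4 group (0.67), against 16.3% of all tested genes. With all 59 libraries in the fit 3 of the 9 transporters were called higher. ATF4 mRNA itself rose least among the regulators, from 256 and 258 to 338 and 338 CPM (1.31-fold, log2 difference 0.40). TRIB3, a pseudokinase that restrains ATF4, rose from 65.3 and 66.1 to 296 and 294 CPM (4.5-fold, adjusted p = 9.32e-14). STC2, a secreted glycoprotein, rose 5.82-fold and DDIT3, the transcription factor CHOP, 3.98-fold. Both Coptidis Rhizoma libraries were above every Zizyphi Fructus and vehicle library for each of these genes.

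The enzymes that rose span the route from glycolysis to serine, folate-bound carbon and asparagine. ASNS, asparagine synthetase, was at 322 and 316 CPM against 127 and 125 CPM, with the vehicle at 127 to 133 CPM (log2 difference 1.34 ± 0.04, adjusted p = 8.81e-13). ALDH1L2, the mitochondrial 10-formyltetrahydrofolate dehydrogenase, rose 3.91-fold, CBS, which joins serine to homocysteine, 3.09-fold, and PCK2, the mitochondrial phosphoenolpyruvate carboxykinase, 3-fold. CBS has a near-identical copy in the GRCh38 assembly, so its level is uncertain. Of the other members, ALDH18A1 and CTH were not called, at log2 differences of 0.05 and -0.02. The glycine transporter SLC6A9 (31.9 and 27.8 against 9.1 and 9.47 CPM) and the neutral amino acid transporter SLC1A4 (94.6 and 95.1 against 36.7 and 35.7 CPM) led the transporters. SLC3A2, the shared heavy chain of several transporters, was the single member that fell, by 0.15 on the log2 scale (adjusted p = 0.0167), and it lost the call without Coptidis Rhizoma replicate 2 or without Zizyphi Fructus replicate 2.

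Among the ATF4-group tRNA synthetases GARS1 rose most, from 230.2 and 225 to 456 and 438 CPM (1.96-fold), followed by SARS1 (1.94-fold) and AARS1 (1.79-fold), and TARS1 least, at a log2 difference of 0.17. Of the 8 cytosolic synthetases outside the group none rose, and RARS1 and FARSA fell by 0.24 and 0.23 on the log2 scale. These counts lie near the shares of all tested genes, of which 16.3% rose and 16.9% fell. Both calls were lost with all 59 libraries in the fit and against a minimum fold of 1.2. The call of FARSA was lost without Zizyphi Fructus replicate 3. The median over these 8 was -0.05.

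Promoter windows were compared for the C/EBP-ATF element, the composite letters that ATF4 and C/EBP partners bind. The 9-letter form TGATGNAAT was in 3 of 43 promoters found for the ATF4 lists and in 1.02% of all promoters. The 8-letter form TGATGNAA, chosen after its matches were seen, was in 13 of the 43 (30.2%), in 6 of 10 ATF4-group synthetases, in 0 of 6 other synthetases, in 3.67% of all promoters and in 1.67% of those of tested genes. These shares are given with no test. The 6 synthetase windows and 4 others from members that rose are shown along the gene, with the 8 letters or their complement in capitals:
AARS1, chr16:70289676-70289703, minus strand: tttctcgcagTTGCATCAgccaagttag
CARS1, chr11:3057408-3057435, minus strand: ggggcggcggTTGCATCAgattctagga
IARS1, chr9:92293693-92293720, minus strand: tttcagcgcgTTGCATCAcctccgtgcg
MARS1, chr12:57488054-57488081, plus strand: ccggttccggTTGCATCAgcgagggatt
NARS1, chr18:57621805-57621832, minus strand: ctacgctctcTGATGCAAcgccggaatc
TARS1, chr5:33440957-33440984, plus strand: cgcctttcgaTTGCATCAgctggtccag
CHAC1, chr15:40953252-40953279, plus strand: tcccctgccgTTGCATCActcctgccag
ASNS, chr7:97872459-97872486, minus strand: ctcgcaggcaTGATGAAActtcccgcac
ATF3, chr1:212565206-212565233, plus strand: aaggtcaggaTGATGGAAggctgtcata
MTHFD1L, chr6:150866347-150866374, plus strand: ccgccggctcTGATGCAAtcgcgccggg
In 8 of the 10, all but ASNS and ATF3, the capitals hold the same letters on one strand or the other. SLC3A2, which fell, holds a match as well.

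**Figure D2:**
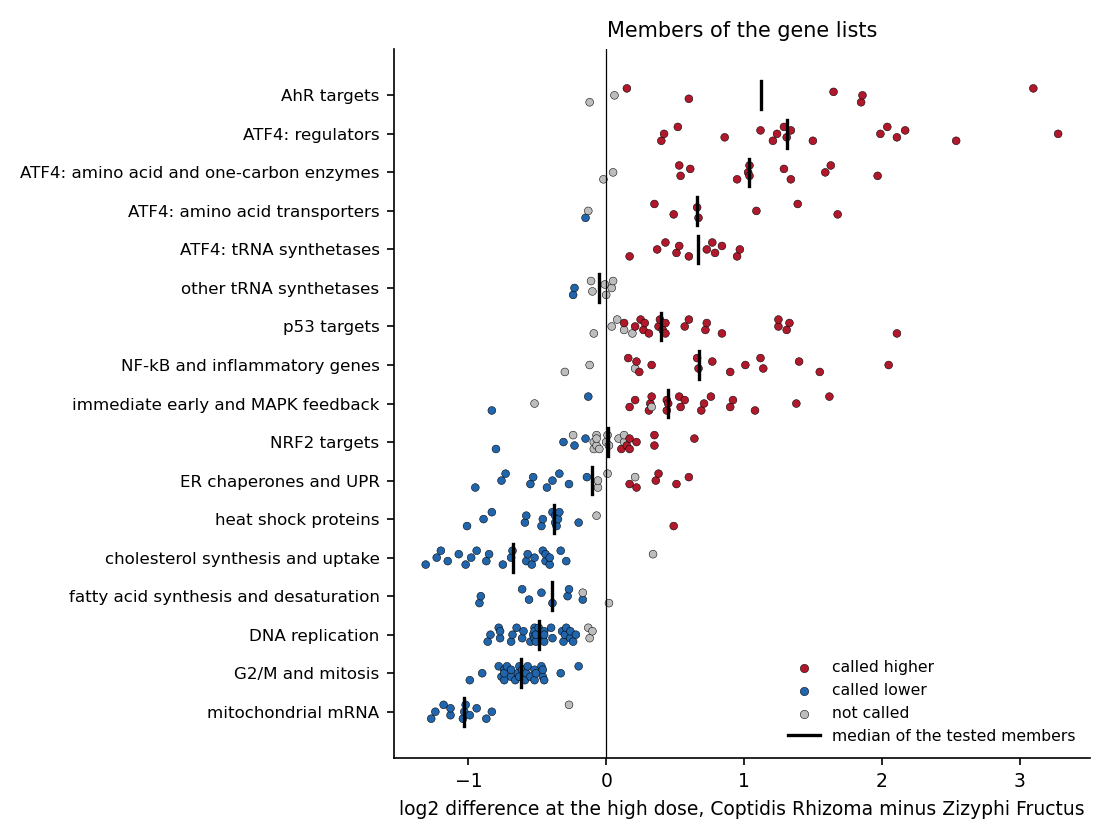
Log2 difference at the high dose for each tested member of 17 gene lists (points, coloured by call), with the median of each list as a bar. The ATF4 and AhR lists lie mostly to the right of 0, and the cholesterol, DNA replication, mitosis and mitochondrial mRNA lists to the left.

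Genes of the endoplasmic reticulum moved in both directions. Of 20 chaperones and unfolded protein response genes 6 rose and 10 fell, against 16.3% and 16.9% of all tested genes. Their median was -0.10, and 6 fell with all 59 libraries in the fit. XBP1, the transcription factor spliced in that response, rose from 59.2 and 60.7 to 91.9 and 89.6 CPM, and HSPA5, the main luminal HSP70 chaperone, rose 1.28-fold. CALR, the calcium-binding lectin chaperone, fell from 445 and 473 to 231 and 243 CPM (log2 difference -0.95 ± 0.04, adjusted p = 1.01e-10). Heat shock genes, most of them cytosolic, fell in 14 of 16 cases (median -0.38, against 16.9% of all tested genes lower). HSPA1A was at 182 and 183 CPM against 359 and 377 CPM, and its near-identical neighbour HSPA1B at 121 and 132 CPM against 226 and 242 CPM, so reads between these copies may be split uncertainly. HSPA9, the mitochondrial HSP70, was the single member that rose, from 600.2 and 586 to 846 and 815 CPM.

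The mitochondrial genome showed opposite differences in its rRNAs and mRNAs. The 12S rRNA gene MT-RNR1 (chrM:648-1601) was at 21762 and 21032 CPM with Coptidis Rhizoma, 1393 and 1700 CPM with Zizyphi Fructus and 1456 to 1624 CPM in the vehicle (13.8-fold, log2 difference 3.79 ± 0.13, adjusted p = 2.13e-12). The 16S gene MT-RNR2 was at 40639 and 37323 CPM against 18436 and 20510 CPM (2-fold). Together they took 6.42% and 6.09% of the counts with Coptidis Rhizoma against 2.05% and 2.26%. These are mRNA libraries, and no source used here says how rRNA came to be captured, so these counts are not an amount of rRNA.

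Of the 13 mitochondrial mRNAs 12 fell, with a median of -1.03, against 16.9% lower among all tested genes. MT-CO1, the catalytic subunit of cytochrome oxidase, was at 7075 and 6665 CPM against 15177 and 14984 CPM (log2 difference -1.13 ± 0.11, adjusted p = 3.81e-07). MT-ND4 of complex I fell from 9010 and 8773 to 3848 and 3505 CPM. MT-ND6, the one mRNA encoded on the other strand, was not called (238 and 195 against 251 and 271 CPM, adjusted p = 0.396), though it was called lower in the fit of the 4 libraries alone and in the fit with no filter on low counts. The mRNAs together took 3.14% and 2.95% of counts with Coptidis Rhizoma against 6.36% and 6.51%, so the mitochondrial total at this dose was 9.56% and 9.04% against 8.4% and 8.77%. In the fit over all 59 libraries 5 of the 13 were called lower. The 22 mitochondrial tRNA genes were too low to test.

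Nuclear genes of the respiratory chain fell in 12 of 34 cases and rose in none (median -0.12), and genes of mitochondrial transcription and RNA processing fell in 10 of 28 and rose in 2 (median -0.12). Among all tested genes 16.9% fell and 16.3% rose. NDUFS3, a core complex I subunit, fell from 69.9 and 69.8 to 53 and 53.5 CPM, and FASTKD5, which serves processing of mitochondrial transcripts, from 57.7 and 58.8 to 45.1 and 44.2 CPM. With all 59 libraries in the fit none of the 34 and 1 of the 28 were called lower, and without Zizyphi Fructus replicate 3 the counts were 7 and 5.

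Cholesterol synthesis and uptake fell almost as a block. Of 25 genes 24 fell and none rose, against 16.9% lower and 16.3% higher among all tested genes. The median log2 difference was -0.68, and TM7SF2 was not called at 0.34. INSIG1, the sterol-regulated anchor of SREBP, was at 14.1 and 14.4 CPM against 33.2 and 30.4 CPM, with the vehicle at 35.5 to 38.2 CPM (log2 difference -1.15 ± 0.06, adjusted p = 9.28e-10). HMGCS1, which makes the precursor of mevalonate, was at 117 and 116 CPM against 199 and 194 CPM, a fall of 0.75 on the log2 scale. For both genes the vehicle libraries lay with or above the Zizyphi Fructus libraries. Fatty acid genes fell in 9 of 11 cases (median -0.39), led by the desaturases SCD (491 and 494 against 947 and 918 CPM) and FADS2 (214 and 219 against 397 and 419 CPM). Of 8 LXR targets ABCA1 and ABCG1, which export cholesterol, rose (log2 differences 0.77 and 1.21) and LPCAT3 fell, shares near those of all tested genes (16.3% higher and 16.9% lower), and ABCA1 and LPCAT3 lost their calls with all 59 libraries in the fit. The sterol regulatory element was in 1 of 18 promoters found for the cholesterol list, that of SREBF2 (chr22:41832961-41832990, plus strand, match in capitals), and in 0.154% of all promoters:
SREBF2: atgacgcgccATCACCCCACgcaccgcttc

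Proliferation genes fell together while p53 targets rose. All 28 genes of G2/M and mitosis fell (median -0.62) and 32 of 35 DNA replication genes fell with none rising (median -0.49). Among all tested genes 16.9% fell and 16.3% rose. KIF20A, a mitotic kinesin, was at 42.8 and 40.9 CPM against 85.6 and 80.9 CPM (log2 difference -0.99 ± 0.06, adjusted p = 2.65e-09). CCNB1, the mitotic cyclin B1, was at 149.5 and 143 CPM against 218 and 219 CPM, and TK1, thymidine kinase, at 78.8 and 82.6 CPM against 138 and 155 CPM. Regulators of the cycle were divided, and of 17 tested cyclin, inhibitor and E2F genes 8 fell and 3 rose (median -0.10). Among them CCND3 (log2 difference -1.14), the inhibitor gene CDKN2C (-1.13) and E2F8 (-1.21) fell most. In bulk libraries a lower share of dividing cells and less of these mRNAs per cell cannot be told apart.

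Of 26 p53 targets 21 rose and none fell (median 0.40), against 16.3% higher and 16.9% lower among all tested genes. With all 59 libraries in the fit 11 were called. CDKN1A, the p21 inhibitor of cyclin-dependent kinases, rose from 100.5 and 104 to 171 and 164 CPM (1.64-fold), GADD45A from 12.3 and 13.8 to 32.5 and 33.5 CPM (2.51-fold). SESN2 (4.32-fold) and GDF15 (2.49-fold), 2 of the largest rises, are ATF4 targets as well and stand in both lists.

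Of 17 NF-kB and inflammatory genes 14 rose and none fell (median 0.67), against 16.3% higher among all tested genes. The chemokine CXCL8 was at 3.23 and 3.99 CPM against 0.557 and 1.13 CPM (4.13-fold, adjusted p = 3.05e-05) and CXCL2 at 9.02 and 8.09 CPM against 2.55 and 3.22 CPM. The count was 8 without Coptidis Rhizoma replicate 2, 9 without Zizyphi Fructus replicate 2 and 7 with all 59 libraries. Of 23 immediate early and MAPK feedback genes 19 rose (median 0.45; 9 with all 59 libraries), among them the AP-1 subunit FOSL1 (73.7 and 66.5 against 26.4 and 27.3 CPM) and the EGF receptor ligand EREG (342 and 335 against 166 and 155 CPM). FOS and DUSP1 fell, and FOS at 2.1 and 1.95 against 2.55 and 4.53 CPM lost the call without Coptidis Rhizoma replicate 2, without Coptidis Rhizoma replicate 3 and without Zizyphi Fructus replicate 3.

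The 3 NR4A orphan nuclear receptors, immediate early genes that bind DNA without a known ligand, went the other way. NR4A1 was at 8.22 and 10 CPM with Coptidis Rhizoma, 33.3 and 35.8 CPM with Zizyphi Fructus and 35.8 to 39.6 CPM in the vehicle (log2 difference -1.92 ± 0.08, adjusted p = 3.4e-11). NR4A3 fell by 2.16 and NR4A2 by 1.56 on the log2 scale. In none of the 3 did the extracts' libraries overlap, as in 32.3% of all tested genes with Coptidis Rhizoma lower.

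A pair of glucocorticoid-inducible genes moved apart. TSC22D3, also called GILZ, was at 31.9 and 30 CPM against 9.75 and 8.67 CPM (3.37-fold), while SGK1, a serum- and glucocorticoid-induced kinase, was at 19.6 and 18.4 CPM against 45.8 and 51.6 CPM (log2 difference -1.36 ± 0.07). Of the 7 tested genes in that list 2 rose and 3 fell, against 16.3% and 16.9% of all tested genes. With all 59 libraries in the fit 1 of the 7 rose and 1 fell. The 3 fibrinogen chains, which A549 cells express, fell: FGA by 1.31, FGB by 1.64 and FGG by 1.21 on the log2 scale, FGB from 171 and 190.4 to 56.2 and 59.9 CPM. Of 11 epithelial and A549 genes 2 rose and 5 fell, the share that rose being near the 16.3% of all tested genes (16.9% fell). The keratins divided between the directions. KRT7 (2442 and 2387 against 1789 and 2013 CPM) and KRT19 (29.9 and 30.4 against 21.3 and 23.6 CPM) were the members that rose, and among those that fell were KRT8 (2029 and 1989 against 3244 and 3604 CPM) and KRT18 (1610 and 1660 against 2512 and 2637 CPM). With all 59 libraries in the fit none of the 11 was called higher and 2 lower.

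**Figure D3:**
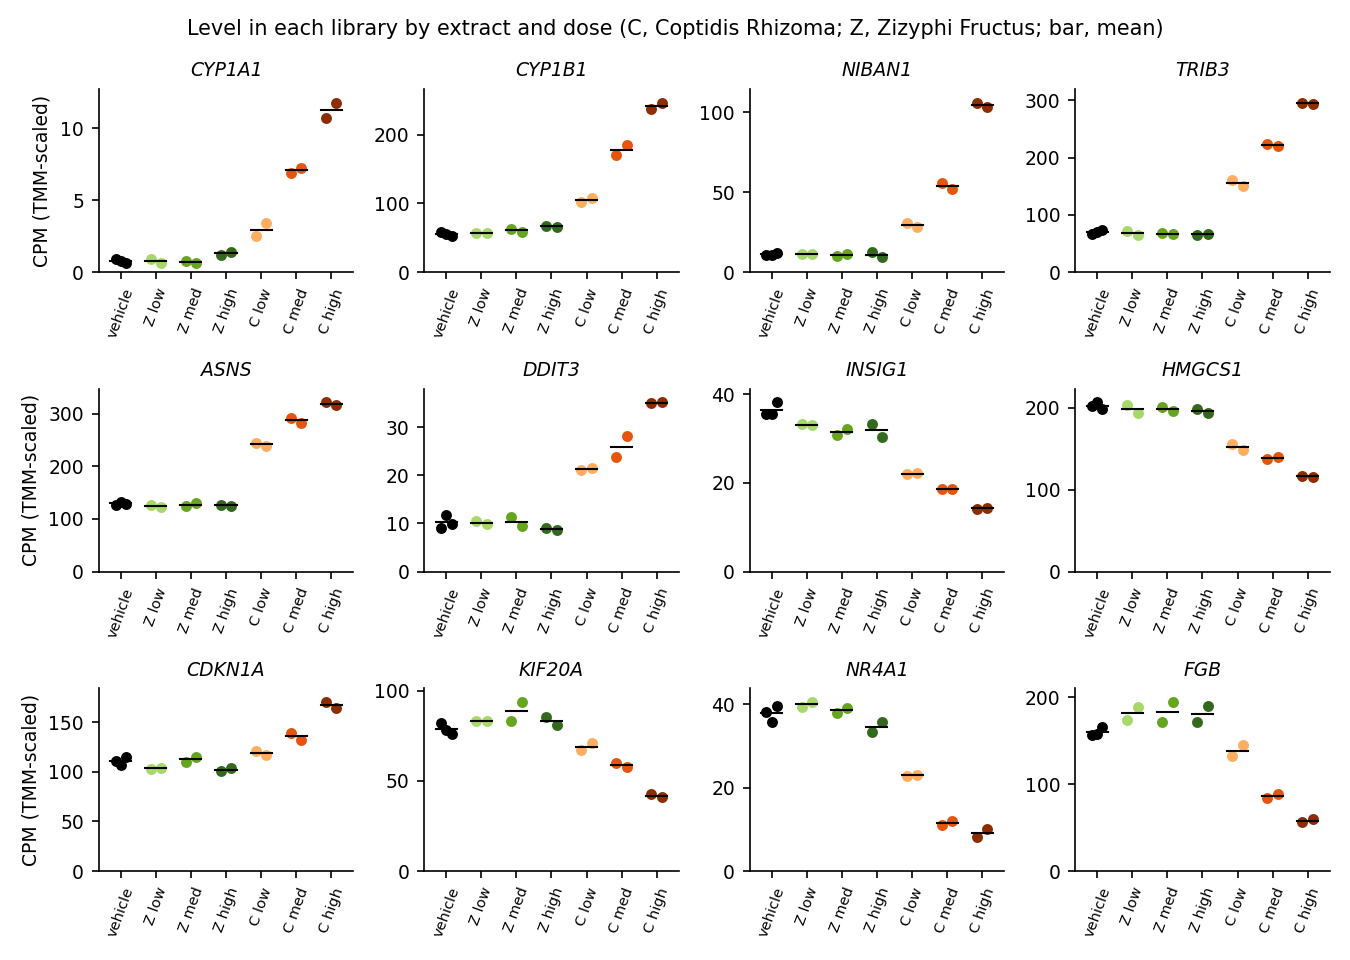
Level of 12 genes in every library of the vehicle (n = 3) and of each extract and dose (n = 2 each), in CPM on a linear axis from 0, with the mean as a bar. The Zizyphi Fructus libraries lie near the vehicle at each dose, and the Coptidis Rhizoma libraries move away from it as the dose rises, NIBAN1 from 30.5 and 27.9 CPM at the low dose to 106 and 103 CPM at the high dose.

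The same pair of extracts was compared at the lower doses, whose libraries are separate but share the fit, and so the estimates of spread, with those of the high dose. At the medium dose 2840 genes were called (17.2%), 1388 higher (8.39%) and 1452 lower (8.78%), and at the low dose 738 (4.46%), 374 higher (2.26%) and 364 lower (2.2%). Of the genes that rose at the high dose 1165 (43.2%) also rose at the middle step of the dilution and 329 (12.2%) at the lowest, which were 83.9% and 88% of the genes called higher there. Of those that fell 1277 (45.8%) and 318 (11.4%) also fell, or 87.9% and 87.4% of the genes called lower there.

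At the low dose 4.4 µg/mL of Coptidis Rhizoma stood against 20 µg/mL of Zizyphi Fructus. There 15 of 17 ATF4 regulators, 12 of 14 enzymes, 6 of 9 transporters and 12 of 12 synthetases were already called higher. Of 25 cholesterol genes 17 had fallen. Among all tested genes 2.26% rose and 2.2% fell at that dose. ASNS was at 245 and 239 CPM against 127 and 123 CPM, and INSIG1 at 21.9 and 22.2 CPM against 33.2 and 33 CPM. Mitosis genes fell in 12 of 28 cases at the low dose and 26 at the medium dose. The p53 targets rose in 6 and 10 of 26, with TP53INP1 falling at the low dose. At the medium dose 8.39% of all tested genes rose and 8.78% fell. The change of the difference from the low to the high dose was tested directly and was called in 1611 genes (9.74%), 699 positive (4.23%) and 912 negative (5.51%). It was positive in 12 of 17 ATF4 regulators and 14 of 26 p53 targets. It was negative in 25 of 28 mitosis, 27 of 35 replication and 16 of 25 cholesterol genes. The list counts in this paragraph were not rerun in the alternative fits. Over all genes the calls at the low dose went from 738 to 36 with all 59 libraries in the fit.

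The mitochondrial genes did not keep one order across the doses. MT-RNR1 stood far higher with Coptidis Rhizoma at all 3 doses, with log2 differences of 4.01, 4.16 and 3.79 from low to high and no called change between the low and high dose (adjusted p = 0.46). The mitochondrial total was further apart at the lower doses than at the high one, at 15.8% and 14.1% of counts with Coptidis Rhizoma against 8.4% and 10% at the medium dose and 16.9% and 15.8% against 10.3% and 8.21% at the low dose. MT-CO1, MT-CO2, MT-CO3, MT-ATP6, MT-ATP8 and MT-ND4L were lower at all 3 doses. MT-ND5, MT-CYB and MT-ND6, which lie next to each other at the end of the coding part of the genome, were higher with Coptidis Rhizoma at both lower doses. MT-ND5 (chrM:12337-14148) was at 16989 and 14253 CPM at the low dose, 6038 and 4696 at the medium dose and 1600 and 1374 at the high dose, while the Zizyphi Fructus libraries of the 3 doses stayed between 2569 and 3464 CPM. Its log2 difference was 2.37, 0.95 and -0.87 from low to high, and the test of the change from low to high gave -3.25 ± 0.19 (adjusted p = 3.38e-08). No source used here says whether the counting used strand, so reads from the strand opposite a gene cannot be told apart from its own.

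**Figure D4:**
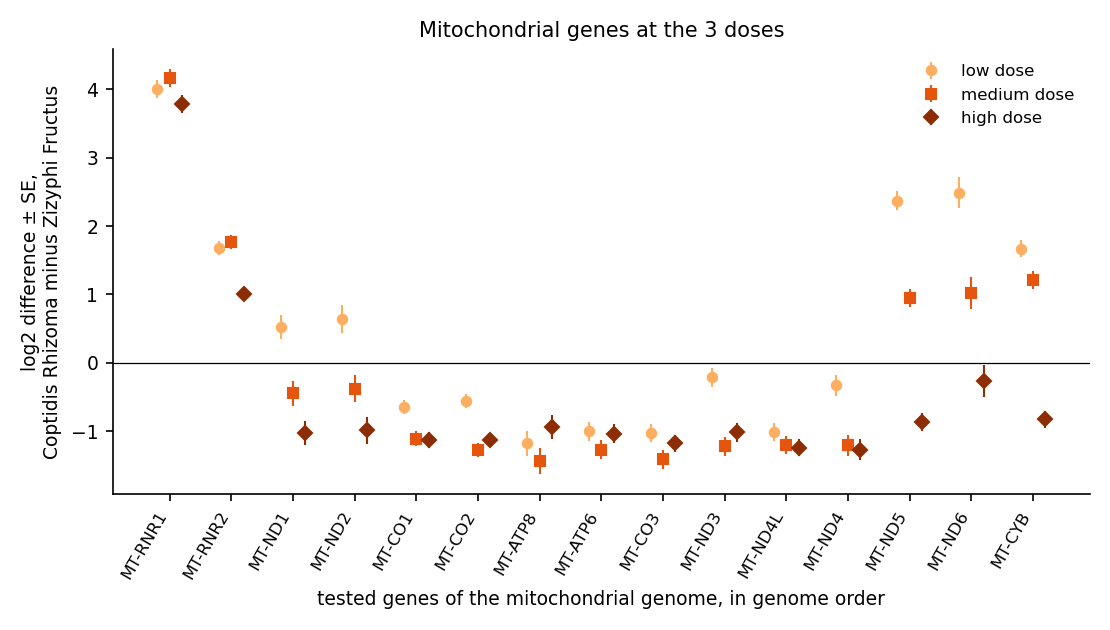
Log2 difference between the extracts, Coptidis Rhizoma minus Zizyphi Fructus, with its standard error, for the 15 tested mitochondrial genes in genome order at the low, medium and high dose (n = 2 libraries per extract and dose). MT-RNR1 lies near 4 at every dose, and MT-ND5, MT-ND6 and MT-CYB lie above 0 at the low and medium dose and below 0 at the high dose, where MT-ND6 was not called.

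Other lists gave small or divided differences. Of 25 NRF2 targets 8 rose and 4 fell (median 0.01), against 16.3% and 16.9% of all tested genes. With all 59 libraries in the fit 1 rose and 1 fell, and without 1 library at a time 4 or 5 rose. HMOX1, heme oxygenase, was not called at 178 and 174 against 154 and 168 CPM (adjusted p = 0.112). None of 5 tested metallothionein and zinc export genes was called by edgeR or by DESeq2, and none had an unadjusted p under 0.05. Of 15 interferon-stimulated genes 3 rose and 2 fell, shares near those of all tested genes, OAS1 falling from 20 and 18.9 to 11.5 and 9.48 CPM. Among 29 cytosolic ribosomal protein genes 18 rose, a share well above the 16.3% of all tested genes, each by a log2 difference of 0.32 or less, and none was called with all 59 libraries in the fit. Leaving out Zizyphi Fructus replicate 2 left 6, and leaving out either Coptidis Rhizoma library left 9. These genes have many processed copies, which makes small differences uncertain. The efflux pump gene ABCB1 was too low to test. Where a list above had no member called in a direction by edgeR, DESeq2 called none there either, and an unadjusted p under 0.05 was reached there by 1 cholesterol gene (higher) and 1 NF-kB gene (lower).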

How the data were processed

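RNA-seq of A549 cells was analysed from 1 deposited table of expected counts per Ensembl gene (60675 genes). Per the submitters' processing notes the authors counted with RSEM 1.3.3 after alignment by STAR 2.7.3a to hg38/GRCh38 (reads checked with FastQC 0.11.9, trimmed with Trim Galore 0.6.5). Libraries were MGIEasy directional mRNA libraries with pairs of 100 bases, per the labels' protocols, and no source used here names the annotation release. The 210 columns that match no sample of this series were not used. Expected counts were rounded and 15 libraries (the 12 of set 11 and 3 vehicle libraries) were fitted with 7 group means by edgeR 4.0.16 (R 4.3.3): TMM scaling, low genes removed by filterByExpr (min.count 10, min.total.count 15), quasi-likelihood test with 8 residual degrees of freedom, and Benjamini-Hochberg adjustment over all 16541 genes. SE is the log2 difference divided by the root of F. Alternatives were other sets of libraries, DESeq2 1.42.0, other scaling and filters, a minimum fold, and each replicate left out. The scripts were tested on simulated data.

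Positions are from GENCODE 29 (GRCh38), which held 94% of the gene identifiers. Overlapping, antisense and near-identical genes may share reads. In the 38 gene lists, 624 of 691 entries passed the filter on low counts. The genes named are the 10 largest rises and the 10 largest falls among called genes of at least 5 CPM with a proper symbol, the leading called members of each list and a fixed set including CYP1A1, ASNS and CDKN1A. The lists, the named genes and the comparison were chosen with earlier results of these data known. A few genes are not reported here.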

Additional observations from a re-analysis of the deposited data

Results flagged for a closer look

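In 7 genes the extracts differed in opposite directions at the high and the low dose, both called. The change between the doses, the log2 difference at the high dose minus that at the low dose, was itself called by edgeR. The genes were picked by their opposite calls, which nearly fixes the call of the change, so that call is no separate support. MT-ND5 gave -3.25 ± 0.19 (SE, adjusted p = 3.38e-08) and MT-CYB -2.51 ± 0.19 (adjusted p = 7.29e-07), with MT-CYB at 15379 and 13523 CPM with Coptidis Rhizoma at the low dose and 2525 and 2274 CPM at the high dose. MTND2P28, a nuclear copy of mitochondrial sequence on chromosome 1 that can share reads with it, gave -1.73 ± 0.19 (adjusted p = 2.58e-05). AKAP12, a scaffold for protein kinase A, gave 0.52 ± 0.09, at log2 differences of 0.27 at the high and -0.25 at the low dose. TP53INP1, a p53 target, gave 0.74 ± 0.13, at 0.39 and -0.35, and HSPBAP1 gave 0.98 ± 0.19, at 0.47 and -0.52. At the low dose the adjusted p by edgeR was close to 0.05: 0.0391 for AKAP12, 0.0463 for TP53INP1 and 0.0472 for HSPBAP1. RGPD2 gave 9.64 ± 1.68, but its libraries held 0 to 0.604 CPM and it belongs to a family of near-identical copies, so its value is uncertain.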

How the results depend on the processing

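The count of genes called at the high dose stayed within 1.5 times the reported 5484 in every alternative except 2: with all 59 libraries in the fit it was 1508 (1492 of them shared in direction), and against a minimum fold of 1.2 it was 1708. Leaving out 1 library at a time gave 3896 to 4570, the lone library being assumed to vary like the other groups. With the replicate number as a block it was 5573. The labels do not say that a number marks a shared day or batch, so the numbers were not taken as pairs. Between the extracts at one dose same-numbered deviations correlated at 0.108 (high), -0.265 (medium) and 0.018 (low dose). Over all 15 pairs of the 6 groups they ran from -0.265 to 0.606, with 5 above 0.1. The source of the higher values was not tested. At the medium dose (2840) the counts beyond 1.5 times were 337 with all 59 libraries, 1396 with 55 libraries (without the 4 of high antisense counts), 1548 with only the compared libraries and 472 with the minimum fold, and 1527 to 2948 with 1 library left out. At the low dose (738) they were 36, 188, 1587 and 73 in the same order, 1192 with no filter on low counts, and 227 to 328 with 1 library left out. For the change between doses (1611) they were 66 with 59 libraries, 490 with 55, 258 with the minimum fold, and 860 to 1695 with 1 library left out. The block gave 2938, 817 and 1753. The share of calls that were higher was 50.7% at the low dose and became 72.2% with 59 libraries and 79.5% with the minimum fold; at the medium dose it was 48.9% and became 61.2% with the minimum fold. Of 140 named genes none reversed in any alternative run, 87 did not change call and 52 lost it in at least 1. DESeq2 gave no adjusted p for CCL20 and GFAP. The cause of these shifts was not tested. With 2 libraries per extract, low genes are the least certain: CXCL8 at 0.557 CPM or EGR1 at 0.914 CPM rest on few reads.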

Other observations

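Most other gene groups moved in both directions, beside 16.3% of all tested genes that rose and 16.9% that fell. Of 27 TGF-beta and mesenchymal genes 10 rose and 7 fell with Coptidis Rhizoma relative to Zizyphi Fructus, with GREM1 on one side and SNAI1, a repressor of E-cadherin (9.35 and 9.68 against 17.7 and 17.9 CPM), on the other. Of 26 glycolysis and hypoxia genes 5 rose and 12 fell: HK2, hexokinase 2, was at 5.16 and 5.54 CPM against 1.76 and 1.79 CPM (3-fold), while the glycolytic kinase PGK1 fell by 0.36 and the hypoxia-induced carbonic anhydrase CA9 by 1.23 on the log2 scale. Of 29 lysosome and autophagy genes 5 rose and 13 fell, with the autophagy receptor SQSTM1 at 1249 and 1235 CPM against 765 and 800.1 CPM. PDK4, which holds back pyruvate dehydrogenase, fell from 23.4 and 28 to 12.5 and 12.8 CPM and was with IRS2 the pair that fell among 9 FOXO and glucose-sensing genes, of which none rose, a share near that of all tested genes. Of 26 ribosome biogenesis genes 7 rose and none fell by edgeR, where DESeq2 called 1 lower and 3 had an unadjusted p under 0.05 in that direction. The remaining lists were 3 up and 8 down of 17 cyclin, inhibitor and E2F genes, 1 up and 2 down of 8 xenobiotic receptor targets and transporters, 6 up and 3 down of 13 fibrinogen and coagulation genes, 2 up and 2 down of 6 tested markers of other cell types, and 2 up and 4 down of 14 housekeeping genes. The counts for xenobiotic receptor targets lie near the shares of all tested genes, as does the share of housekeeping genes that rose. DESeq2 called 6 of the 14 housekeeping genes lower, and 8 had an unadjusted p under 0.05 in that direction by edgeR.

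The genes that rose were longer than those that fell, and they also differed from them in level. The median of the mean level was 26.3 CPM for genes called higher, 46.2 CPM for those called lower and 16.3 CPM for all tested. Among protein-coding genes the median span was 37.7 kb for those called higher, 29.7 kb for those called lower and 32.9 kb for all tested, and 21%, 15.4% and 19.4% spanned more than 100 kb. Genes annotated as antisense were 79 of the 2694 called higher and 50 of the 2790 called lower, both smaller shares than the 966 of all 16541 tested.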
